A study of Mus musculus with 4 samples.

Results

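The BCL2 family decides at the mitochondrial outer membrane whether a cell keeps or loses the barrier that holds back cytochrome c. Pro-survival proteins (MCL1, BCL2, BCL-XL, A1) bind and restrain the effectors BAX and BAK, which form the pores, and the BH3-only proteins (BIM, BID, BAD) engage the pro-survival proteins or the effectors and tip the balance towards death. In macrophages MCL1 and A1 are both known to support survival, and MCL1 is known as a short-lived protein.

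The mRNAs of 10 members were followed here: the pro-survival genes Mcl1, Bcl2, Bcl2l1 (BCL-XL), Bcl2a1b and Bcl2a1d (both A1), the effectors Bax and Bak1, and the BH3-only genes Bcl2l11 (BIM), Bid and Bad. They were taken by name from 41324 genes in the deposited table, and all 10 were among the 10837 genes tested. RAW264.7 cells, a mouse macrophage-like line, were left untreated or given 10 µg/ml actinomycin D, which binds DNA and blocks transcription, for 2, 4 or 6 h. There was 1 library at each time and 4 in all, from RNA that the labels call cytoplasmic, depleted of ribosomal RNA. The purpose of the course was to estimate how fast each mRNA decays.

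Total counts were 12762100 in the shallowest library (6 h) and 70289647 in the deepest (4 h). All 10 macrophage markers were detected in every library, and 14 markers of other cell types summed to between 0.624 and 0.899 CPM, with Cd3e at 0 counts in each library. No time had a replicate, so intervals below are exact 95% intervals that cover counting error only. Levels are CPM (counts relative to library size, scaled by TMM, which sets the typical gene to no change), and a gene at 100% of untreated has therefore kept pace with the typical gene. In bulk RNA, fewer cells and less RNA per cell cannot be told apart.

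Per length of annotated exon, Mcl1 was the most abundant member before treatment, at 115 CPM per kb (113 to 117), followed by Bak1 at 59.9 (58.2 to 61.7) and Bax at 54.6 (52.5 to 56.7). Bid stood at 25.3 and Bcl2l1 at 13.5. Bcl2a1d (8.83, interval 7.73 to 10.0), Bad (8.37, 7.74 to 9.04) and Bcl2a1b (7.44, 6.40 to 8.59) could not be ranked within their counting error. Bcl2l11 stood at 4.46 and Bcl2 at 0.513, the lowest member. At 6 h the order on the same scale began with Bak1 (66.4, 63.5 to 69.4) and Bax (62.4, 58.9 to 66.0), whose intervals overlapped, and Mcl1 came next at 37.5 (35.7 to 39.4).

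With TMM the family separated into 3 kinds of course. Mcl1, Bcl2l1 and Bcl2l11 lost much of their mRNA within 2 h and then stayed low, Bid was lost at each step, and Bax, Bak1 and Bad stayed near untreated throughout with this scaling. For the A1 genes and Bcl2 none of the 3 tests below passed with TMM, and their joint calls depended on the scaling. Trends were tested with edgeR over all 10837 genes in 3 ways: a straight line in time, a bend (the quadratic term), and both terms jointly. With the line, 1 member fell and 0 rose, where 16.8% of all genes fell and 8.03% rose. With the bend, 3 members bent upward, where 18% of all genes did, and 0 bent downward (10.7% of all genes). Jointly, 4 members were lower and 2 higher, where 36.2% of all genes were lower and 31.6% higher, so the share of members called was not far from that of all genes.

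**Figure D1:**
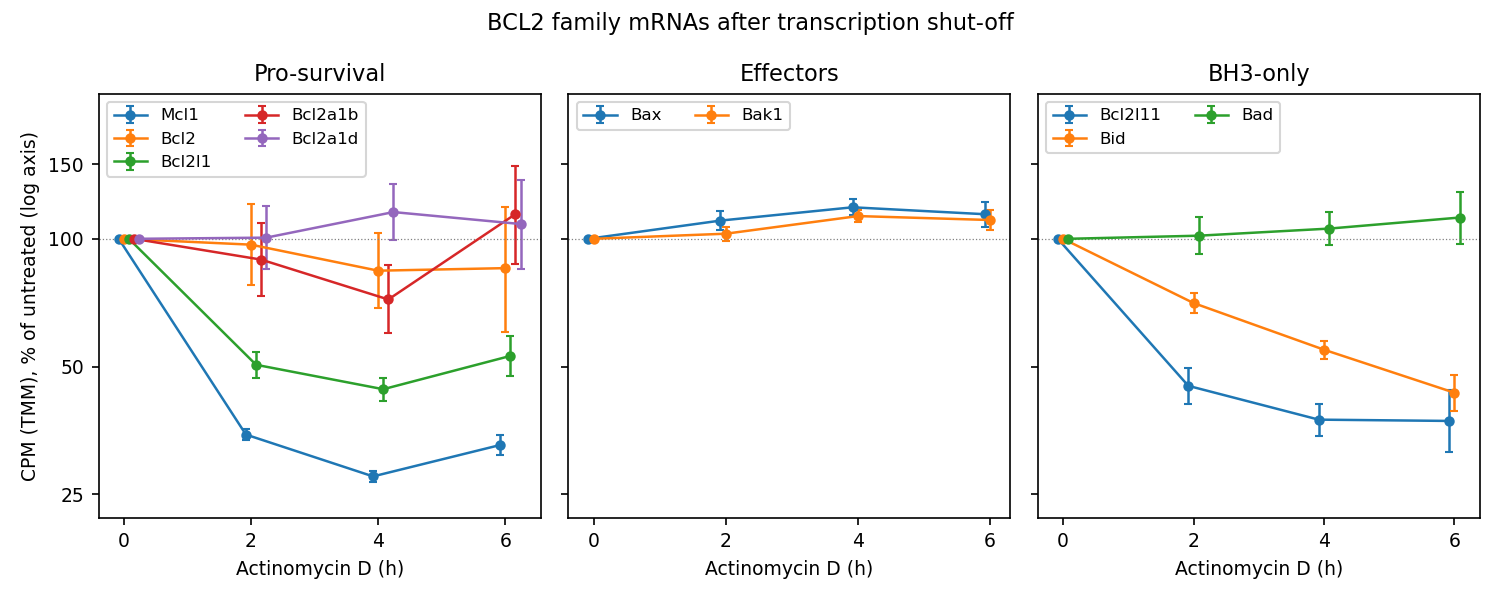
CPM (TMM) of each member as percent of the untreated library (log axis) against hours of actinomycin D, by role; points are single libraries and bars are exact 95% counting intervals. Mcl1, Bcl2l1 and Bcl2l11 drop by 2 h and level off, Bid declines at each time (43.4% at 6 h), and Bax, Bak1 and Bad stay near 100%.

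Mcl1, which restrains BAK and BIM, gave 392 CPM in untreated cells and 136, 108 and 128 CPM at 2, 4 and 6 h. All 3 treated libraries were well below the untreated one, with the lowest at 4 h. Mcl1 stood at 34.6% of untreated at 2 h (33.5 to 35.7%), and the 6 h library was still at 94.5% of the 2 h library (89.3 to 99.9%). Its change at 2 h, −1.53 log2, lay at percentile 3.89 of all genes tested. The bend was past the test (edgeR adjusted p = 2.32e-05), as was the joint test (edgeR adjusted p = 6.80e-08), while the straight line was not (edgeR adjusted p = 0.0810, with a slope of −0.27 ± 0.087 log2 per h, SE). Without the 2 h or the 6 h library the line passed as a fall (edgeR adjusted p = 0.0239 and 0.0227). It missed without the 4 h library (edgeR adjusted p = 0.144) and without the untreated library, where the slope was −0.026 (edgeR adjusted p = 0.501).

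Bcl2l1, which encodes the pro-survival protein BCL-XL and a shorter death-promoting splice form, gave 62.0 CPM in untreated cells and 31.3, 27.4 and 32.9 CPM at 2, 4 and 6 h. As for Mcl1, all treated libraries lay well below untreated, at 44.2% to 53.0%. The 4 h library was at 87.6% of the 2 h library (81.8 to 93.9%) and the 6 h library at 120% of the 4 h library (107 to 133%), both outside counting error. The 6 h library was at 105% of the 2 h library (93.6 to 117%). Bcl2l1 bent upward (edgeR adjusted p = 0.000189) and was lower by the joint test (edgeR adjusted p = 2.03e-06), with a line of −0.15 ± 0.064 log2 per h (edgeR adjusted p = 0.129). The line passed without the 6 h library (−0.29, edgeR adjusted p = 0.0280) and turned to 0.010 without the untreated one. It missed without the 2 h or the 4 h library (edgeR adjusted p = 0.0525 and 0.215). Counts per gene do not separate the splice forms.

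Bcl2, the founding member, was scarce, with 143 counts in the untreated library and 197, 300 and 49 at 2, 4 and 6 h. These gave 4.70 CPM in untreated cells and 4.55, 3.95 and 4.01 CPM after actinomycin D. At 6 h the level was 85.3% of untreated with an interval of 60.4 to 119%, so a change within that interval was not detectable at this depth. With TMM none of the tests passed (edgeR adjusted p = 0.353 for the line and 0.483 jointly). Jointly Bcl2 was lower with ribosomal protein scaling (edgeR adjusted p = 0.0418) and with the authors' divisors (0.0241).

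The A1 genes Bcl2a1b and Bcl2a1d are duplicated copies on mouse chromosome 9 (chr9:89199209-89207827, plus strand, and chr9:88723285-88731914, minus strand, mm10). Bcl2a1d gave 7.62 CPM in untreated cells and 7.67, 8.81 and 8.26 CPM at 2, 4 and 6 h, with the untreated library lowest. Bcl2a1b gave 6.08 CPM in untreated cells and 5.43, 4.37 and 6.95 CPM, with the 4 h library lowest and the 6 h library highest. With TMM neither passed any test (edgeR adjusted p for the joint test 0.128 for Bcl2a1b and 0.544 for Bcl2a1d). Jointly Bcl2a1b was lower with ribosomal protein scaling (edgeR adjusted p = 0.00922, and 0.0171 for an upward bend) and with the authors' divisors (0.0260 jointly), and Bcl2a1d was higher with total counts (0.0498). The Bcl2a1b slope was 0.011 with all libraries and −0.12 without the 6 h one.

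Single values of the A1 copies are uncertain, since their coding sequences were identical at 513 of 519 bases (98.8%). Of the distinct 50-base stretches of the Bcl2a1b transcript 79.2% also occurred in another gene, as did 79.5% of those of Bcl2a1d, against 8.51% for Bax and at most 0.135% for the other members. Exons of Bcl2a1b also overlap the same-strand gene Gm29094 over 49.1% of their length in the annotation used here. The deposited counts hold no gene of that name. The sources used here do not say how reads that fit several copies were counted. The first 30 coding bases of each copy, shown because they hold 1 of the 6 differing bases (in capitals), illustrate how little separates them (mm10, chr9:89199360-89199389, plus strand, and chr9:88731690-88731719, minus strand).
Bcl2a1b: atgGctgagtacgagttcatgtatatccac
Bcl2a1d: atgTctgagtacgagttcatgtatatccac

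With TMM the effectors stayed at or above their untreated level. Bax, which moves from the cytosol to the mitochondrion when activated, gave 86.0 CPM in untreated cells and 94.9, 102 and 98.3 CPM at 2, 4 and 6 h. Bak1, whose protein resides on the outer membrane, gave 144 CPM in untreated cells and 148, 163 and 160 CPM. For both genes the untreated library was lowest and the 4 h library highest. With TMM, Bax and Bak1 were higher by the joint test (edgeR adjusted p = 0.00757 and 0.0350), but this direction depended on scaling: with the divisors behind the authors' normalized values both fell along the line (slopes −0.053 and −0.058 log2 per h, edgeR adjusted p = 0.0259 and 0.0362). Scaling on ribosomal protein mRNAs also put both below untreated, Bax at 89.5% and Bak1 at 86.8% at 6 h.

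The ratio of Bak1 to Bax counts needs no scaling between libraries, and it stayed nearly level. It was 1.68 in untreated cells and 1.63 at 6 h (1.51 to 1.75), and the 2 h and 4 h ratios were 93.1% and 95.3% of the untreated one. Exons of Bax share 12.2% of their length with the same-strand gene Gm45808, a name that the deposited counts do not hold. Those of Bak1 share 7.35% and 18.2% with 2 annotated entries of the opposite-strand gene Ggnbp1, which had 24 to 126 counts.

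Bcl2l11, whose protein BIM is among the strongest activators of apoptosis, gave 35.8 CPM in untreated cells and 16.1, 13.4 and 13.3 CPM at 2, 4 and 6 h. The treated libraries were all under 50% of the untreated one, at 45.0%, 37.5% and 37.2%, and 6 h was at 82.7% of 2 h (69.3 to 98.2%). The bend and the joint test passed (edgeR adjusted p = 0.00230 and 5.49e-06), and the line narrowly missed (−0.24 ± 0.063 log2 per h, edgeR adjusted p = 0.0557). It passed without the 2 h library (edgeR adjusted p = 0.0207) and without the 6 h library (0.0262), and missed without the 4 h library (0.124). Its slope shrank to −0.08 once untreated cells were left out (edgeR adjusted p = 0.240).

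Bid, the BH3-only protein that caspase-8 cleaves and so links death receptors to mitochondria, was the member that fell along the straight line. It gave 89.9 CPM in untreated cells and 63.4, 49.3 and 39.0 CPM at 2, 4 and 6 h, each library below the one before. The 3 steps left 70.6% (66.9 to 74.4%), 77.6% (73.9 to 81.6%) and 79.2% (71.8 to 87.1%) of the preceding level. The slope was −0.20 ± 0.017 log2 per h (edgeR adjusted p = 0.0150), and it passed without each library in turn (edgeR adjusted p between 4.24e-06 and 0.0431). With total counts it missed (−0.18, edgeR adjusted p = 0.0529). Of the Bid exons 17.7% overlap Bcl2l13 on the opposite strand, and Bcl2l13 stood at 89.9% of untreated at 6 h.

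Bad, a BH3-only protein that survival kinases hold inactive by phosphorylation, gave 21.4 CPM in untreated cells and 21.8, 22.6 and 24.0 CPM at 2, 4 and 6 h. All 4 libraries lay close together, and 6 h was at 112% of untreated with an interval of 97.5 to 129%. With TMM neither the line nor the joint test passed (edgeR adjusted p = 0.324 and 0.361), and jointly Bad was lower with the authors' divisors (edgeR adjusted p = 0.0139). Exons of Bad overlap Gpr137 on the opposite strand over 20.5% of their length, and Gpr137 had 207 to 1130 counts.

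**Figure D2:**
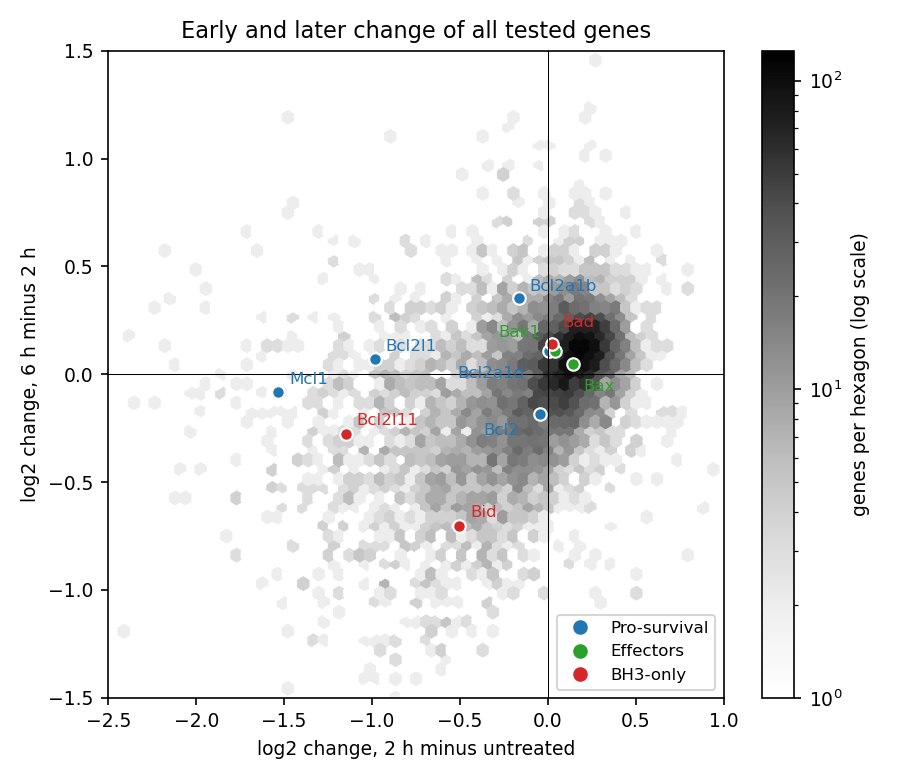
Change from untreated to 2 h (x axis, log2) against change from 2 to 6 h (y axis, log2) for the genes tested, as a grey density, with 307 genes outside the axes; the 10 members are coloured by role. Mcl1, Bcl2l11 and Bcl2l1 lie to the left near y = 0, with an early change of −1.53, −1.15 and −0.99, and Bid lies low at −0.70 on the y axis.

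With TMM, early and later loss thus differed in share among the 4 members called lower. From untreated to 2 h, Mcl1, Bcl2l11 and Bcl2l1 changed by −1.53, −1.15 and −0.99 log2, and from 2 to 6 h by −0.08, −0.27 and 0.07. Bid changed by −0.50 log2 early and by −0.70 later. A change past 2-fold lower at 2 h was seen in 2 of 10 members, where 9.06% of all genes had one, and at 6 h in 3 of 10, where 16.1% did. At 4 h it was 3 of 10, beside 14.7%. No member was past 2-fold higher at 2, 4 or 6 h, where 1.1%, 1.43% and 2.77% of all genes were.

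Ratios within a library give the balance of the family without any scaling between libraries. Mcl1 had 4.56 counts per Bax count in untreated cells (4.37 to 4.76) and 1.43, 1.06 and 1.30 at 2, 4 and 6 h (1.21 to 1.41 at 6 h). The ratio in the treated libraries was between 23.2% and 31.3% of the untreated one, well outside the counting intervals. Bcl2l11 had 0.416 counts per Bax count in untreated cells and 0.170, 0.132 and 0.136 after actinomycin D. Bid had 1.05 in untreated cells and 0.668, 0.483 and 0.397, with the lowest ratio at 6 h. The ratio of Bad to Bax was 0.249 in untreated cells and 0.245 at 6 h, with overlapping intervals (0.228 to 0.271 and 0.215 to 0.278).

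Levels per length were summed over the listed members of each role. The pro-survival members stood at 1.27 times the effectors in untreated cells and at 0.513, 0.404 and 0.491 times at 2, 4 and 6 h. The BH3-only members Bcl2l11, Bid and Bad stood at 0.333 times the effectors in untreated cells and at 0.233, 0.184 and 0.171 times. The pro-survival sum was 3.80 times the BH3-only sum in untreated cells and 2.20, 2.20 and 2.87 times after actinomycin D, so both sums shrank against the effectors. Mcl1 made up 79.1% of the pro-survival sum in untreated cells and 63.5%, 59.0% and 59.4% at 2, 4 and 6 h. These are sums of mRNA levels over the listed members, and protein was not measured. Other pro-survival and BH3-only genes are not in them. The pro-survival gene Bcl2l2 stood at 4.05 CPM per kb in untreated cells and 5.15 at 6 h. Bcl2l13, listed with it, stood at 8.27 and 7.43. Of the BH3-only genes, Pmaip1 stood at 8.57 CPM per kb in untreated cells and 9.965 at 6 h, Bbc3 at 5.17 and 1.46, and Bmf at 2.60 and 0.311.

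**Figure D3:**
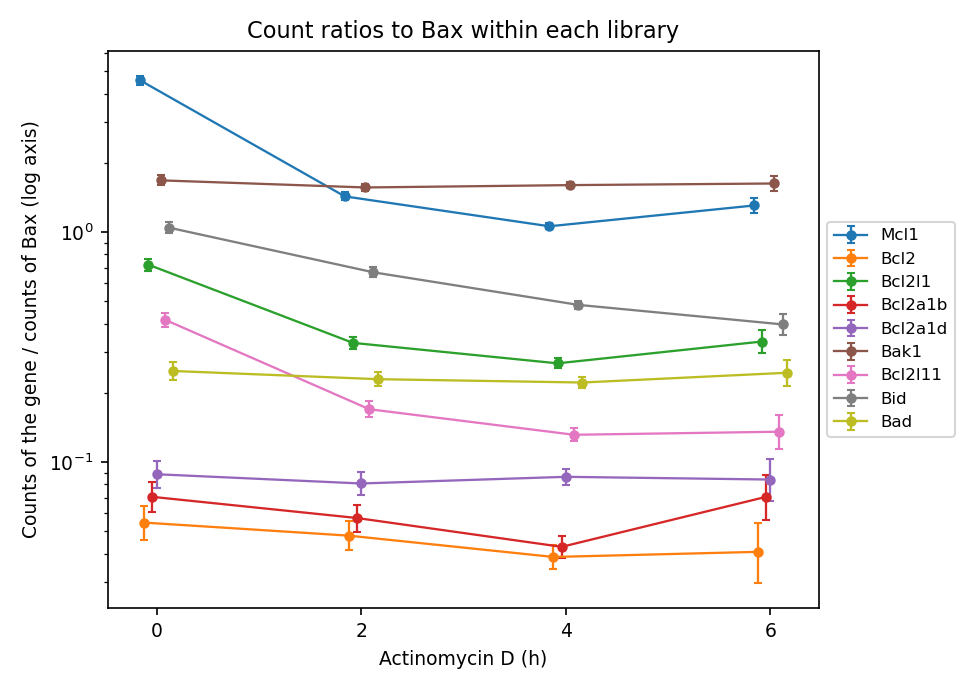
Counts of each member divided by counts of Bax in the same library (log axis) against hours of actinomycin D, with exact 95% counting intervals. Mcl1 drops below Bak1 by 2 h (1.43 against 1.56), Bid declines at each time, and Bak1, Bad and Bcl2a1d run nearly level.

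The level at which a stable member sits depended on the library scaling, whereas the same 4 members were lower under each of the 5 tried. At 6 h Mcl1 stood between 22.8% and 36.7% of untreated over 5 scalings, Bcl2l11 between 26.0% and 41.8%, Bid between 30.3% and 48.7% and Bcl2l1 between 37.0% and 59.5%. Bax ranged between 79.8% and 128%, Bak1 between 77.3% and 124% and Bad between 78.4% and 126%, crossing 100%. Under the authors' divisors 9 members were lower by the joint test and 0 higher, where 71.4% and 2.37% of all genes were, and 4 fell along the line, where 45.8% of all genes did. Under ribosomal protein scaling 7 members were lower and 0 higher, where 57.5% and 5.34% of all genes were, and 5 bent upward, where 31% did. With total counts 2 fell along the line, where 12.2% of all genes did, and Bax and Bak1 bent downward, where 44.1% of all genes did. Jointly 4 members were lower and 3 higher there, where 24.7% and 47.6% of all genes were. Bax and Bak1 were among those higher (edgeR joint adjusted p = 0.0050 and 0.018). Under every scaling Mcl1, Bcl2l1, Bcl2l11 and Bid were lower by the joint test (edgeR adjusted p at most 1.27e-05). The shape of their courses depended on the scaling. Bid also bent upward with ribosomal protein scaling and with the authors' divisors (edgeR adjusted p = 0.00976 and 0.0171). With total counts Bcl2l11 did not bend (edgeR adjusted p = 0.0796), and it stood at 59.7%, 47.4% and 41.8% of untreated at 2, 4 and 6 h. Mcl1 and Bcl2l11 were the members past the line there (edgeR adjusted p = 0.0048 and 0.0033). Relative to TMM the median gene at 6 h moved by 0.17 log2 with total counts, −0.35 with ribosomal protein scaling and −0.52 with the authors' divisors.

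**Figure D4:**
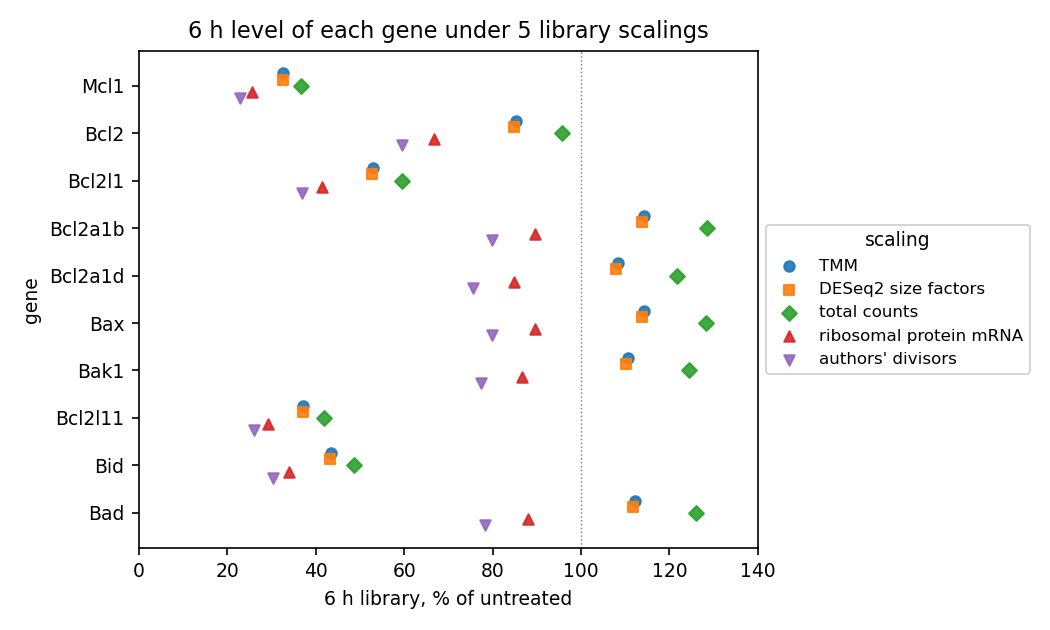
Level of each member in the 6 h library as percent of untreated (x axis) under 5 library scalings (symbols). Mcl1, Bcl2l1, Bcl2l11 and Bid stay below 60% under each scaling, while Bax, Bak1, Bad and both A1 genes lie on either side of 100%.

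Half-lives in the authors' deposited table belong to this same course, so they are not separate support. Among the members they were shortest for Mcl1, Bcl2l11, Bcl2l1 and Bid. In that table Mcl1 had 1.55 h, Bcl2l11 1.92 h, Bcl2l1 2.20 h and Bid 2.90 h. The authors' deposited table gave 4.30 h for Bcl2a1b, 5.69 h for Bcl2, 9.72 h for Bad, 12.2 h for Bak1, 12.7 h for Bcl2a1d and 17.3 h for Bax. Among the 12769 positive half-lives in the authors' deposited table the median was 6.14 h, and 6.59% were shorter than that of Mcl1. The table carries 1 half-life per gene, and which libraries each fit used is not stated. The deposited values of Mcl1, Bcl2l1, Bid, Bcl2a1b and Bax match those of a log2 line fixed at the untreated level. That line runs over the 2 h and 4 h levels with the authors' divisors and leaves out 6 h. Bcl2a1b had a deposited R2 of the fit of 0.9996, and its rise after 4 h lies outside that line. With the divisors behind the authors' normalized values it stood at 73.4%, 52.1% and 79.9% of untreated at 2, 4 and 6 h. With TMM, Mcl1 at 4 h was at 79.7% of the 2 h library (77.1 to 82.4%) and at 6 h at 119% of the 4 h library (112 to 125%). With the divisors behind the authors' normalized values, Mcl1 stood at 28.4%, 20.0% and 22.8% of untreated at 2, 4 and 6 h.

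AU-rich elements built from ATTTA pentamers are bound by decay factors in the 3' UTR of many short-lived mRNAs, and members with like courses differed in how many they hold. ATTTA was searched on the transcript strand of the longest annotated 3' UTR, overlapping matches counted, and 70.6% of the 9614 tested genes with a 3' UTR hold at least 1. Mcl1 has 8 copies in 2353 bases, and 14.4% of genes with a 3' UTR of like length (within 0.8-fold in either direction) have as many. Bcl2l11 has 6 in 4218 bases, where 60.9% of genes of like length have as many, and Bcl2l1 has 1 in 1477 bases. Bid, which fell along the line with TMM, has 0 in 1427 bases, and Bak1 and Bax have 0 as well. Bcl2, for which no test passed with TMM, has the most, 15 in 5086 bases, and is the only member with the nonamer TTATTTATT, which contains ATTTA (2 copies; 20.6% of genes of like length hold 1). With every annotated 3' UTR of a gene merged, Bcl2l11 has 8 copies, as many as Mcl1, Bcl2l1 has 2 and Bcl2 has 18. The counts of the other members stayed the same. A match describes these letters and not a working site.

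The densest 30-base window of ATTTA (in capitals, transcript strand, GENCODE annotation of mm10) is shown for Mcl1 and Bcl2l11, which dropped early, and for Bcl2, which holds the most copies. The Mcl1 window lies at chr3:95662590-95662619 (plus strand), that of Bcl2l11 at chr2:128161350-128161379 (plus strand) and that of Bcl2 at chr1:106543003-106543032 (minus strand).
Mcl1: ATTTAtccttgatcatagtttgcttATTTA
Bcl2l11: tgtatATTTAttttccgcttATTTAaatgt
Bcl2: tATTTAggaaaaaaaagATTTATTTATTTA

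The Mcl1 and Bcl2l11 windows hold 2 copies each, set apart, and the Bcl2 window holds 4, of which 3 run into one another.

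Among 7715 genes with a mean CPM of at least 10, those closest to Mcl1 in the 3 log2 changes were Dusp16 (distance 0.045), Itga5 (0.059), Clp1 (0.121), Zfp592 (0.131) and Ccnl1 (0.132). Dusp16, a phosphatase that switches off MAP kinases, stood at 34.6%, 28.3% and 32.3% of untreated. Closest to Bcl2l11 were Hjurp, Sgms1, Zswim4, Skil and Kansl1 (distances 0.079 to 0.102), and closest to Bax were Trim37, Gcn1l1, Mydgf, Dcaf6 and Aes (0.0081 to 0.016). Each comparison rests on 4 libraries that all genes share.

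Of 16 further family genes 8 were abundant enough to test, and among them 1 fell and 0 rose along the line (16.8% and 8.03% of all genes). Bmf, a BH3-only gene linked to the cytoskeleton, fell, with 19.6% and 14.7% of untreated at 2 and 4 h and an interval of 7.23 to 18.7% at 6 h, from 20 counts (−0.55 ± 0.117 log2 per h, edgeR adjusted p = 0.0400). Leaving out the untreated library or the 4 h one took Bmf out of the calls (edgeR adjusted p = 0.137 and 0.0984). Bbc3 (PUMA), a p53-induced BH3-only gene, stood at 33.5%, 24.2% and 28.3% of untreated and was lower by the joint test (edgeR adjusted p = 1.40e-05). Pmaip1 (NOXA), which binds MCL1, stood at 116%, 115% and 116% (edgeR joint adjusted p = 0.125). The pro-survival gene Bcl2l2 stood at 127% and Bcl2l13 at 89.9% at 6 h, and the mitophagy receptors Bnip3 and Bnip3l at 85.0% and 113%. Bik and Hrk had 0 counts in every library, and the floor for a count of 0 was set at 3 counts in each.

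Downstream of the membrane, 16 genes of the release and apoptosome step were tested, of which 1 fell along the line and 0 rose (16.8% and 8.03% of all genes). The one that fell was Birc3, an inhibitor of apoptosis, at 28.0% of untreated at 6 h (slope −0.31 ± 0.075, edgeR adjusted p = 0.0484). The abundant inhibitors Birc6 and Xiap stood at 101% and 119%. Jointly 6 of these genes were lower and 7 higher with TMM (36.2% and 31.6% of all genes), and 14 lower and 0 higher with the authors' divisors (71.4% and 2.37%), so their direction depends on the scaling. The median change of the list at 6 h was 0.065 log2, beside 0.0075 for all genes tested.

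The 15 genes listed as outer membrane partners stayed high with TMM. Besides the channels of that membrane the list holds Opa1, Bcap31 and Dnm1l, so not every product is an outer membrane protein. All 15 were higher by the joint test (31.6% of all genes were), but with ribosomal protein scaling 1 was higher and 0 lower, and with the authors' divisors 1 was higher and 9 lower. The abundant channels Vdac1 and Vdac2 stood at 137% and 123% at 6 h (line edgeR adjusted p = 0.0700 and 0.126). The fission adaptor Fis1 rose with TMM by 0.073 log2 per h (edgeR adjusted p = 0.0493), but the authors' divisors turned its slope to −0.014, and it missed without each library in turn.

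Of 18 tested genes whose proteins bind, modify or degrade BCL2 family proteins, 2 fell and 6 rose with TMM, where 16.8% of all genes fell and 8.03% rose. Fbxw7, which marks MCL1 for degradation, fell to 23.6% at 6 h by −0.36 ± 0.082 log2 per h (edgeR adjusted p = 0.0449), and the co-chaperone Bag3 to 34.0% (0.0450). The 6 that rose with TMM were Becn1, Bag1, Bag6, Ywhaz, Ywhaq and Tpt1, with slopes of 0.061 to 0.124. With DESeq2 size factors 8 of 18 rose (8.9% of all genes), and with ribosomal protein scaling 2 did (1.21%). With total counts or with the authors' divisors 0 of 18 rose (1.89% and 0.664% of all genes). Huwe1, another ligase for MCL1, stood at 129% and the adaptor Ywhae, of the family that holds BAD, at 133%.

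Of 18 tested regulators of BCL2 family transcripts 4 fell and 1 rose with TMM, beside 16.8% and 8.03% of all genes. The transcription factor Foxo3, an activator of Bcl2l11, fell to 19.4% at 6 h by −0.40 ± 0.080 log2 per h (edgeR adjusted p = 0.0357). Rela and Rel, NF-kB subunits that induce A1 and Bcl2l1, fell by 0.17 log2 per h each (edgeR adjusted p = 0.0233 and 0.0396), and Spi1, which drives macrophage genes, fell to 73.2%. Elavl1, which binds AU-rich mRNA, rose to 143% with TMM (edgeR adjusted p = 0.0305), but the authors' divisors turned its slope to −0.0015. The abundant RNA-binding genes Ncl and Ptbp1 stood at 114% and 112%. Of the 16 genes of these further lists past the line test, 0 passed without the 4 h library, and 10, 13 and 15 passed in the same direction without the 0, 2 and 6 h libraries. With total counts 5 passed in the same direction, with ribosomal protein scaling 7 and with the authors' divisors 8.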

How the data were processed

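The 10 members and the gene lists were chosen with earlier results of these data known. The submitters' processing notes name STAR 2.5.3a, featureCounts, Subread 1.6.3 and mm10, while annotation release, strand setting and treatment of multi-mapping reads are not stated there. The deposited raw counts per gene were used as they stand. The deposited normalized signal columns are counts that the authors divided by 1 whole number per library, whose origin is not stated. The deposited half-life column, a score in hours per the file headers, comes from a fit by the authors that is not stated.

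From the counts, edgeR 4.0.16 in R 4.3.3 gave TMM factors and quasi-likelihood tests of the line (2 residual degrees of freedom) and of the bend and joint terms (1). Genes with a mean CPM of at least 1 were tested and called at a Benjamini-Hochberg adjusted p under 0.05 over all of them. P-values measure the scatter of 4 single libraries around a smooth course, and nothing in the labels says that times came from separate cultures. The joint direction is the sign of the mean change. Log2 changes added a prior count of 0.5. Alternatives were other scalings, filters, DESeq2 1.42.0, each library left out and merged 3' UTRs. Exon lengths, overlaps and 3' UTRs came from GENCODE M21 (mm10). Named were all members, list genes past the line test, the 2 most abundant of each list, and the 5 genes nearest in pattern to Mcl1, Bcl2l11 and Bax. Bbc3, Pmaip1, Bik and Hrk were named after their values were seen. The tests were checked on simulated data with 200 changed genes each. For slopes of 0.25 log2 per h the line test recovered 184, with 9 false calls. For a drop of 2 log2 by 2 h that then stayed, the line recovered 96, the bend 134 and the joint test 185. False calls there were 0, 11 and 11, so the line test missed many early drops.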

Additional observations from a re-analysis of the deposited data

How the results depend on the processing

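With total counts 205 genes rose along the line, against 870 with TMM, 2 members fell and 2 bent downward. With ribosomal protein scaling 131 genes rose, 5 members bent upward, and 7 were lower and 0 higher jointly. With the authors' divisors 4963 genes fell and 72 rose, 4 members fell, and 9 were lower and 0 higher jointly. No filter on low counts and the DESeq2 Wald test each gave 2 members that fell, and DESeq2 gave 1529 genes that rose. Leaving out 1 library gave 342 to 2339 genes that fell, 22 to 1253 that rose, and 1 to 4 members that fell, with the lowest gene counts without the 4 h library. The cause of these shifts was not tested.

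Slopes turned with ribosomal protein scaling to −0.045 for Bcl2a1b, −0.030 for Bcl2a1d, −0.023 for Bax, −0.029 for Bak1 and −0.030 for Bad, and with the authors' divisors to −0.074, −0.060, −0.053, −0.058 and −0.060. Without 1 library the slope of Bcl2l1 ranged between −0.29 and 0.010 and that of Bcl2a1b between −0.12 and 0.066. The Bax changes at 2, 4 and 6 h turned to −0.098, −0.086 and −0.16 with ribosomal protein scaling and to −0.14, −0.22 and −0.33 with the authors' divisors. The Bak1 changes at 4 and 6 h turned to −0.15 and −0.21, and to −0.29 and −0.37. Bend and joint tests could not be fitted without a library, as no residual degrees of freedom remain. The 6 h library is the shallowest, and counting intervals there are widest for Bcl2 and the A1 genes among the members. No paired analysis was possible because each time has 1 library.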
